A study of Drosophila melanogaster with 3 samples.

Results

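The dpr and DIP genes of Drosophila melanogaster were examined for binding of the homeotic protein Labial. All 32 protein-coding genes whose symbol is dpr followed by a number, or begins with DIP-, were taken from the Ensembl annotation, 21 dpr and 11 DIP genes among 13945 protein-coding genes on 6 chromosome arms. Binding was measured by chromatin immunoprecipitation and sequencing. The chromatin came from whole embryos of mixed sex, aged 0 to 24 h, of a fly line with a stable transgene for Labial with GFP at its C terminus. There was 1 group with 3 biological replicates, all precipitated with an antibody against GFP and all set against the same control. No line without the fusion was analysed here, so binding of Labial and unspecific recovery of chromatin cannot be told apart. Whole embryos mix every tissue, so strong binding in a few cells and weak binding in many cannot be told apart either.

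Dpr proteins (defective proboscis extension response) and DIPs (Dpr-interacting proteins) are cell surface proteins of the immunoglobulin superfamily. Each type of neuron carries its own combination of them, and binding of a DIP on one cell to its Dpr partner on another helps neurons choose synaptic partners and survive. Labial is the most anterior Hox protein; it acts in the embryonic midgut and head, the posterior brain included, and binds DNA together with the cofactor Extradenticle (Exd).

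Each peak has a summit, the base of highest signal, and a signal value given by the authors, which ranks peaks within a list. The main list holds the 10160 peaks of the pooled replicates that passed the authors' irreproducible discovery rate (IDR) threshold, in the dm6 build. The pooled list before that threshold and the list of each replicate hold 30000 peaks each, and the replicate lists were cut here to their own 10160 strongest peaks. The replicate lists show the spread between replicates, but they are not independent of the IDR list, which rests on the same samples. The number of reads behind a peak is unknown.

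Sequences of 201 bases centred on 8 member summits are given: the 5 strongest member peaks, the start of dpr10, and the 2 summits that held an Exd-Lab match. All are the plus strand of dm6, with matches to the searched motifs in capitals. The first 4 lie at or just upstream of the start of a member, and the others lie inside DIP-alpha, DIP-gamma and dpr6.
dpr14, upstream, X:7908618-7908818: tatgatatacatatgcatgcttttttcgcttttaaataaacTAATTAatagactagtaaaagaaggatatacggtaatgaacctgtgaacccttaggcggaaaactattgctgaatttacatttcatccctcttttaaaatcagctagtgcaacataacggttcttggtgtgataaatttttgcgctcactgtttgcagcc
dpr20, upstream, 3L:857749-857949: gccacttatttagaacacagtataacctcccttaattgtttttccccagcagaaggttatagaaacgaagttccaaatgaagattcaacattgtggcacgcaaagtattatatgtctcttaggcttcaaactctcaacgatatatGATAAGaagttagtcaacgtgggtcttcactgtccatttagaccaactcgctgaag
dpr19, upstream, 2L:10375836-10376036: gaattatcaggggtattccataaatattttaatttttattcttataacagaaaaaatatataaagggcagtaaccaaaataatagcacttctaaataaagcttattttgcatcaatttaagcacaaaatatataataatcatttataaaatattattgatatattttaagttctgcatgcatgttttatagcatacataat
dpr10, at its start, 3L:10186004-10186204: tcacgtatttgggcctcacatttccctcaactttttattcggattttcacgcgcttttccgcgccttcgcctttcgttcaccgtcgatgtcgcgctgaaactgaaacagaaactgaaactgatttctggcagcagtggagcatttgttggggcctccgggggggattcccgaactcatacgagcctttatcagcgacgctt
dpr6, at the start of the nested gene CG32053, 3L:10092287-10092487: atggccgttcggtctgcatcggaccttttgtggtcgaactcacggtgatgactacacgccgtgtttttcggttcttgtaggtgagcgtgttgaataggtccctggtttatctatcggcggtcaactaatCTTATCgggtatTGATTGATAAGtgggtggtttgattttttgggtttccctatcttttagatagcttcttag
DIP-alpha, strongest intronic summit, X:3546243-3546443: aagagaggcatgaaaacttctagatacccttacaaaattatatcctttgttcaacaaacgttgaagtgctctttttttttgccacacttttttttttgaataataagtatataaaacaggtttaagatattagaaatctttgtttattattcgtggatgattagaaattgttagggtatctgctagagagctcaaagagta
DIP-alpha, weakest intronic summit, X:3563545-3563745: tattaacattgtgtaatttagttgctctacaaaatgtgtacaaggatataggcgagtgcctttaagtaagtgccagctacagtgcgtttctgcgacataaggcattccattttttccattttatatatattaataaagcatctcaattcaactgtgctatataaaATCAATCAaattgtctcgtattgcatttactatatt
DIP-gamma, intronic summit, 3R:28959217-28959417: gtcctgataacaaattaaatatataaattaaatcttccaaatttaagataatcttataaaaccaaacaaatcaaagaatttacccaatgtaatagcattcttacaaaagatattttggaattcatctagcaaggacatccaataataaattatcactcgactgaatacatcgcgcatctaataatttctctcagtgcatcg

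Labial-GFP summits were sparse over these genes. The 32 members with 1 kb on each side held 30 IDR summits, with 26, 37 and 28 in the lists of replicates 1, 2 and 3 (mean 30.3 ± 5.86 SD, n = 3). That is 1.83 summits per 100 kb, against 9.61 per 100 kb over all other protein-coding genes and 7.59 over the 6 arms. The members are long, with a median of 32.5 kb against 2.17 kb for all genes, so each was set beside the other protein-coding genes in which the shorter length was at least 0.8 of the longer (genes of similar length). The mean counts of those genes sum to 114 summits, and the members held 0.262 of that number. The ratio was 0.237, 0.322 and 0.251 in the 3 replicates' lists (mean 0.270 ± 0.0454 SD, n = 3), so all 3 lay below 1. No test was made of this difference, since there is 1 group and members are not replicates.

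The shortfall was mostly in the long members. The 24 members over 10 kb held 25 summits where genes of similar length would hold 107, a ratio of 0.233. The 8 members of up to 10 kb held 5 where such genes would hold 6.93, a ratio of 0.722. In the replicates this ratio ran from 0.392 to 0.736, below 1 in all 3, but it rests on only 3, 5 and 5 summits. In the whole pooled list these 8 members held 14 summits against 14.3, a ratio of 0.981, and the 24 long members had a ratio of 0.541. Among single members, 22 had fewer summits than the median gene of similar length, 6 had as many and 4 had more. Against the mean in place of the median, 29 had fewer and 3 had more, namely dpr14, dpr19 and dpr20, all under 5 kb long. For these 3 the mean was 0.736, 0.607 and 0.737, so 1 summit was enough to exceed it. The mean lay above the median for every member, and the share of all genes below such a mean was not counted. Of the recognition genes described below, 12 of 14 beat, 7 of 8 side and 21 of 33 other genes also had fewer than their mean.

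**Figure D1:**
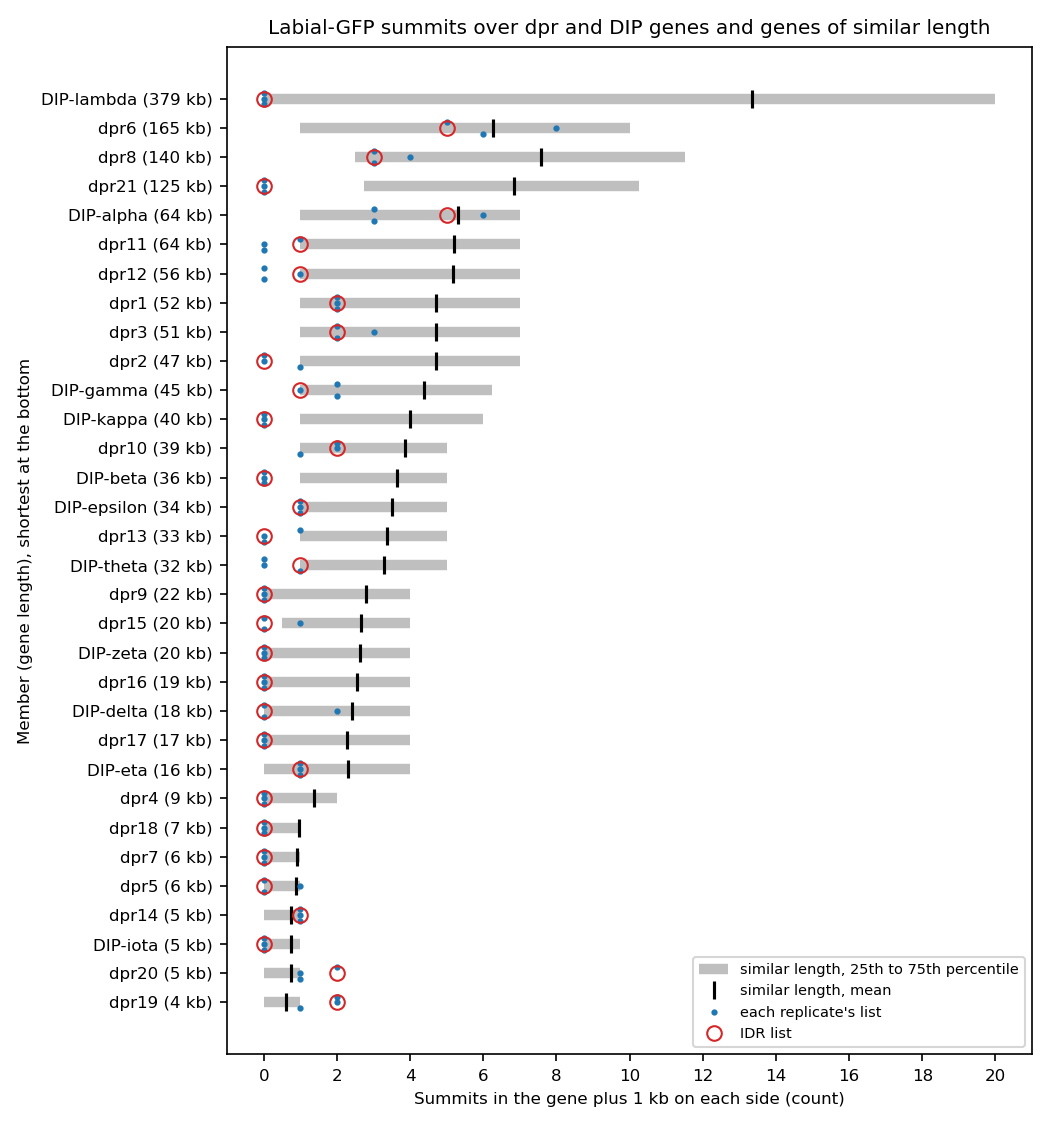
Summits in each of the 32 members with 1 kb on each side, ordered by gene length, in the IDR list (red circles) and in the 10160 strongest peaks of each of the 3 replicates (blue points); grey bars span the 25th to 75th percentile of genes of similar length and black ticks mark their mean. Most circles lie left of the black tick, and dpr14, dpr19 and dpr20 near the bottom lie to its right.

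At least 1 IDR summit lay in 15 of the 32 members (46.9%, exact 95% binomial interval 29.1 to 65.3%), against 37.3% of all protein-coding genes. Genes of the members' lengths carried a summit more often, and their shares sum to 22.5 members (70.4%). The replicates' lists reached 14, 16 and 14 members (mean 14.7 ± 1.15 SD, n = 3). A summit was carried by 10 of 21 dpr genes and by 5 of 11 DIP genes. By number of summits, the dpr genes held 21 (0.305 of the similar-length sum, replicate range 0.269 to 0.371) and the DIP genes 9 (0.198, replicate range 0.158 to 0.245). Of the 9 DIP summits, 5 lay in DIP-alpha alone. The DIP value rests on DIP-lambda, the longest member, for which very few genes of similar length exist. Without it the DIP ratio was 0.280 (replicate range 0.220 to 0.345), which overlaps the dpr range.

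The 17 members without an IDR summit were dpr2, dpr4, dpr5, dpr7, dpr9, dpr13, dpr15, dpr16, dpr17, dpr18, dpr21, DIP-beta, DIP-delta, DIP-iota, DIP-kappa, DIP-lambda and DIP-zeta. In 12 of them no replicate's strongest 10160 peaks had a summit either. In the whole pooled list of 30000 peaks 25 members had a summit, close to the 26.2 to which the shares of genes of similar length sum. The 7 members with none in that list were dpr7, dpr16, dpr18, dpr21, DIP-iota, DIP-lambda and DIP-zeta. Of these, 3 lie in stretches with no IDR summit within 100 kb on either side: dpr7 on chromosome 4 (4:247124-253329), and dpr21 (2R:3066499-3191011) and DIP-lambda (2R:326768-705848) on arm 2R. Their repeat-masked shares were 36.5%, 27.1% and 32.2%. DIP-lambda, at 379 kb the longest member, has 3 genes of similar length, and 1 of them, the cell adhesion gene kirre, carried all of their 40 summits. Leaving out DIP-lambda gave a ratio of 0.297 for the other members, and leaving out all 3 gave 0.322. How far the sequence or mappability of these stretches bears on their empty lists was not tested.

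Across all members, those with and without a summit differed little in composition. The median repeat-masked share of the gene was 18.3% in the 15 with a summit and 17.7% in the 17 without, and the median GC content was 42.5% and 41.0%. Members with a summit were longer, with a median of 45.4 kb against 19.5 kb. The surroundings of members were also poorer in summits than those of other genes. Within 100 kb on either side, members had a median of 5.30 summits per 100 kb and other genes 8.59. Of the 32 members, 23 held fewer summits per kb than their own surroundings, 6 held more, and 3 had none in either. The same count was not made for other genes. Their own median was 0 summits per 100 kb, also below the 8.59 of their surroundings, but the median gene is only 2.17 kb long. Whether the count of 23 is particular to members therefore cannot be told.

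Peaks at the members' own start sites were few. A summit within 500 bp of an own annotated start was present in 6 members (18.8%, exact 95% binomial interval 7.21 to 36.4%), against 25.5% of all protein-coding genes. Shares of genes of similar length sum to 15.0 members (46.8%). The replicates' lists gave 5, 6 and 5 members (mean 5.33 ± 0.577 SD, n = 3). These were 3, 6 and 4 dpr genes and 2, 0 and 1 DIP genes, so the steady total hides a change in which members were called. The 6 members were dpr10, dpr11, dpr12, dpr14, dpr19 and DIP-theta.

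The strongest of these was at dpr14, a short dpr gene (FBgn0029974, 4.58 kb, X:7903704-7908286, minus strand), whose peak ranked 410 (signal 1638). In replicates 1, 2 and 3 its ranks were 425, 395 and 434. Its summit lay 432 bp upstream of the nearest dpr14 start, and 213 bp from the start of the neighbouring gene spidey, so the peak cannot be given to dpr14 alone. The dpr19 gene (FBgn0032233, 2L:10376168-10379905) had a pair of summits in overlapping peaks (2L:10375724-10376147 and 2L:10375932-10376355). Whether they are separate sites was not tested. The stronger ranked 1906 (signal 690), and 2436, 1467 and 2251 in the replicates. It lay 232 bp upstream of a dpr19 start and 179 bp from the start of CG33303. Its window had the lowest GC content (20.9%) and the highest repeat-masked share (54.2%) of the 30 member windows. The weaker lay 24 bp upstream of a dpr19 start and ranked 9981, close to the end of the list, with 10338, 10047 and 7075 in the replicates. Both strong start-site peaks of members thus lay nearer to the start of another gene than to that of the member.

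The other 4 members' start-site peaks ranked 6143 or lower, and in all 4 no other gene started within 500 bp. At dpr10 the summit lay 4 bp downstream of the start and ranked 6143, with 9076, 6999 and 5857 in the replicates. At DIP-theta it lay 19 bp upstream and ranked 9247, with 8057, 10507 and 11957. At dpr11 it lay 289 bp upstream and ranked 9074, with 12572, 10569 and 9583. At dpr12 it lay 27 bp downstream and ranked 9907, with 13026, 9586 and 10997. For dpr11, dpr12 and DIP-theta only 1 replicate placed the peak among its 10160 strongest, so these 3 calls sit at the edge of the list. The strongest peak near any other member was at dpr20 (FBgn0035170, 3L:852720-857248, minus strand). That peak ranked 613 (signal 1329), and 547, 650 and 695 in the replicates. Its summit lay 601 bp upstream of the only dpr20 start, just outside the 500 bp limit, with no start of another gene within 5 kb. A second, weak summit (rank 9628) lay downstream of the gene, inside the gene Dci.

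Most of the members' summits were intronic. Of the 30, 19 lay in introns (63.3%, exact 95% binomial interval 43.9 to 80.1%), 7 at own start sites, 2 at the start of another gene, 2 in the flanks and 0 in exons, which allows a share of up to 10% in exons. In genes of similar length introns held 69.3% of summits. Relative to the similar-length sums, introns of members held 0.240 of 79.2 summits and own start sites 0.312 of 22.5, so both ratios were below 1. Introns held 8 of the 9 DIP summits (88.9%, exact 95% binomial interval 51.8 to 99.7%), 5 of them in DIP-alpha, and 11 of the 21 dpr summits (52.4%, interval 29.8 to 74.3%), and the intervals overlap. Such intervals take summits as independent, although several lie in the same gene, so they may be too narrow.

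**Figure D2:**
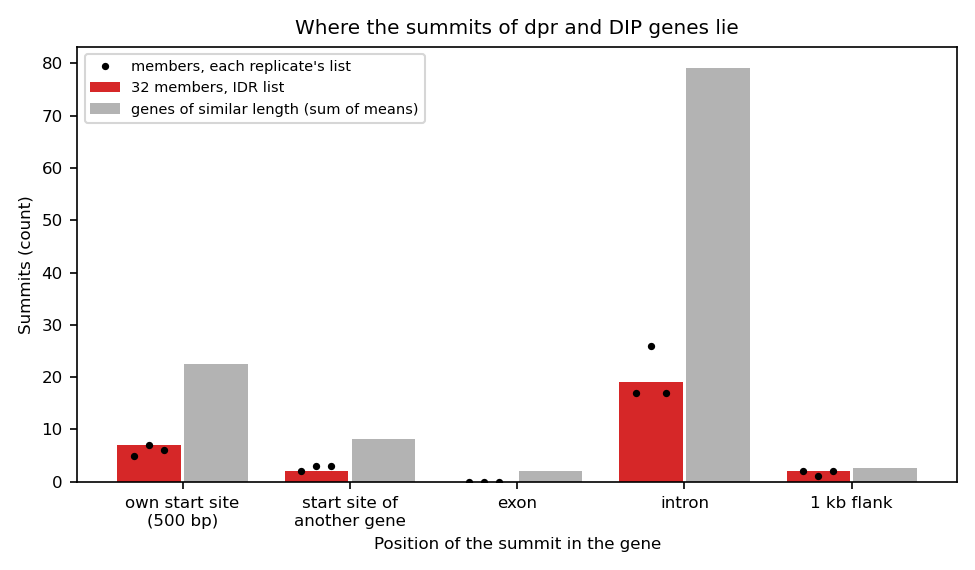
Summits of the 32 members by position (red bars, IDR list; black points, each replicate's 10160 strongest peaks) beside the sum of means over genes of similar length (grey bars). Introns held 19 summits against 79.2, and own start sites 7 against 22.5.

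Intronic summits of members lay at a median of 15.7 kb from the nearest own start (range 5.45 to 125 kb), and 14 of the 19 lay in introns longer than 10 kb. All 19 lay in members over 10 kb long. These distances were not measured for genes of similar length, so they cannot be told apart from an effect of gene length. The intronic summits of members were weaker than those elsewhere, with a median rank of 7492 against 5332 for the introns of other genes. Their windows of 201 bases had a median GC content of 32.3%, against 37.3% for intronic summits of other genes, and 21.4% against 18.9% of the bases were repeat-masked.

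DIP-alpha (FBgn0052791, X:3507245-3571649, minus strand), whose protein binds Dpr6 and Dpr10 and serves partner choice of motor neurons and medulla neurons, had the most summits of any DIP gene. It held 5 in the IDR list and 3, 6 and 3 in the replicates, where genes of its length had a mean of 5.30. All 5 were intronic. The strongest (X:3546217-3546422) ranked 2205 (signal 627), and 2772, 2131 and 2253 in the replicates. The second (X:3548680-3548866), in the same intron, ranked 3621, and 4346, 2742 and 4581. Both were placed high by all 3 replicates. The other 3 ranked 8467, 9231 and 9336, and no more than 2 replicates placed any of them among their strongest 10160. Those of ranks 8467 and 9336 also lay inside another protein-coding gene, ppk8, so they cannot be given to DIP-alpha alone. The 2 strong summits lay 15.7 and 18.1 kb upstream of the nearer of the 2 annotated starts of the gene.

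The dpr6 gene (FBgn0040823, 3L:9974651-10139360) also held 5 summits, and 6, 8 and 5 in the replicates, where genes of its length had a mean of 6.28. The strongest, in an intron 58.8 kb downstream of the start, ranked 4007, and 5141, 2588 and 5328 in the replicates. Another pair of summits lay 5.45 and 8.38 kb downstream of the start and ranked 7829 and 7623. The remaining pair lay at the starts of genes nested in dpr6. One, 91 bp from the start of CG14160, ranked 7463, and the other, 41 bp from the start of CG32053, ranked 5924. The nearest summit of replicate 2 lay 105 and 123 bp away from these, beyond the 100 bp used for matching. For the CG14160 summit that of replicate 3 lay 138 bp away as well, so only replicate 1 matched it, at rank 5723. The CG32053 summit ranked 6397 and 4694 in replicates 1 and 3. In the whole pooled list, which includes the IDR peaks, dpr6 held 45 summits against a mean of 29.4 for its length.

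The dpr10 gene (FBgn0052057, 3L:10147454-10186108, minus strand) lies 8.09 kb from dpr6, with no other protein-coding gene and no IDR summit between them. Besides the peak at its start it held 1 intronic summit of rank 8631, with 14897, 7072 and 8392 in the replicates. DIP-alpha and its partners dpr6 and dpr10 thus held 5, 5 and 2 summits, against similar-length means of 5.30, 6.28 and 3.87.

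DIP-gamma (FBgn0039617, 3R:28925004-28970372, minus strand) pairs with Dpr11 where photoreceptors of the R7 class meet their targets. It held 1 summit, 11.1 kb downstream of the start in an intron of 41.2 kb. This peak ranked 2651 (signal 558), and 2636, 2352 and 3793 in the replicates, the second strongest intronic peak of all members. Genes of its length had a mean of 4.38 summits. Its partner dpr11 held only the weak peak upstream of its start, against a mean of 5.21. DIP-delta (FBgn0085420, 3L:5424109-5442399), which pairs with Dpr12 in the mushroom body, held 0 summits in the IDR list and 0, 2 and 0 in the replicates. Its partner dpr12 held only the weak peak at its start, against a mean of 5.16.

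**Figure D3:**
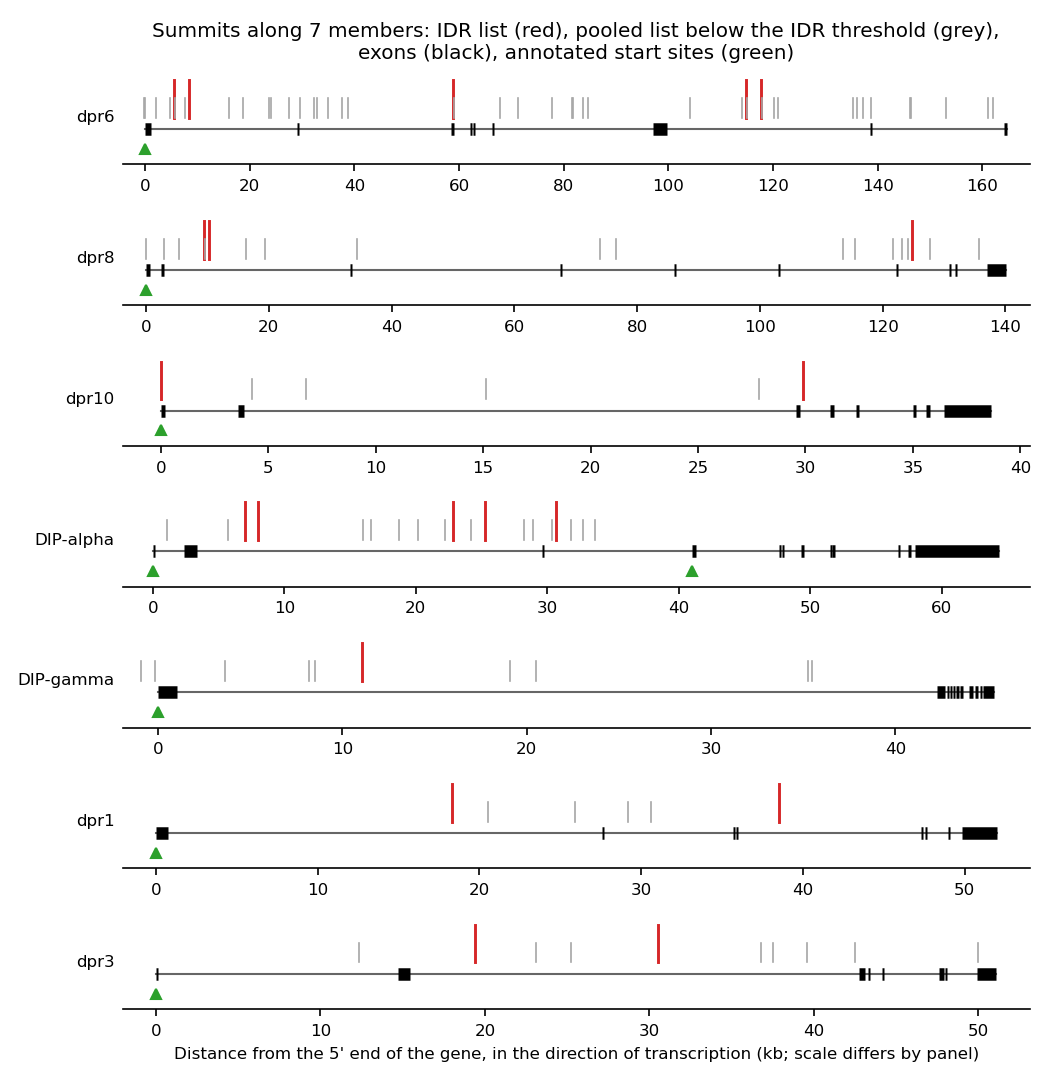
Summits along 7 members by distance in kb from the 5' end of the gene (IDR list, tall red lines; pooled list below the IDR threshold, short grey lines; exons, black; annotated start sites, green triangles). The 5 IDR summits of dpr6 and of DIP-alpha lie away from the start sites, and dpr10 has 1 at its start.

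Among the remaining members with most summits, dpr8 (FBgn0052600, X:14322226-14462351) held 3, all intronic, against a similar-length mean of 7.56, and 3, 4 and 3 in the replicates. They ranked 4747, 6102 and 6442, and each lay among the 10160 strongest peaks of all 3 replicates. The dpr3 gene (FBgn0053516, 2L:2058790-2109878, minus strand) held 2 intronic summits, and 2, 3 and 2 in the replicates. The stronger ranked 5929, and 6643, 4315 and 8987, and the weaker 7807, and 9630, 7954 and 7755. The stronger lay 578 bp from the start of the nested gene CG12674, just outside the 500 bp limit. The dpr1 gene (FBgn0040726, 2R:20698483-20750442), the founder of the family, required for aversion to salt in the proboscis extension reflex, also held 2, and 2 in each replicate. They ranked 7492, with 8204, 5884 and 9708 in the replicates, and 8039, with 8078, 7929 and 9486. For both genes the similar-length mean was 4.70. DIP-eta and DIP-epsilon each held 1 intronic summit, of ranks 4160 and 7839, and both were found in all 3 replicates.

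The members' summits stood low in the list. Their median rank was 7478 of 10160, against 5081 for the whole list. In 4 equal parts of the list from strongest to weakest lay 4, 5, 7 and 14 of them. Own start-site summits had a median rank of 9074 (n = 7), against 4133 for the start-site summits of other genes. Both overlapping dpr19 peaks are counted in this median. With the peaks below the threshold included, the gap to other genes was smaller. In the whole pooled list the members held 202 summits where genes of similar length would hold 362, a ratio of 0.559, and 14.9% of them were in the IDR list, against 31.6% for genes of similar length.

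**Figure D4:**
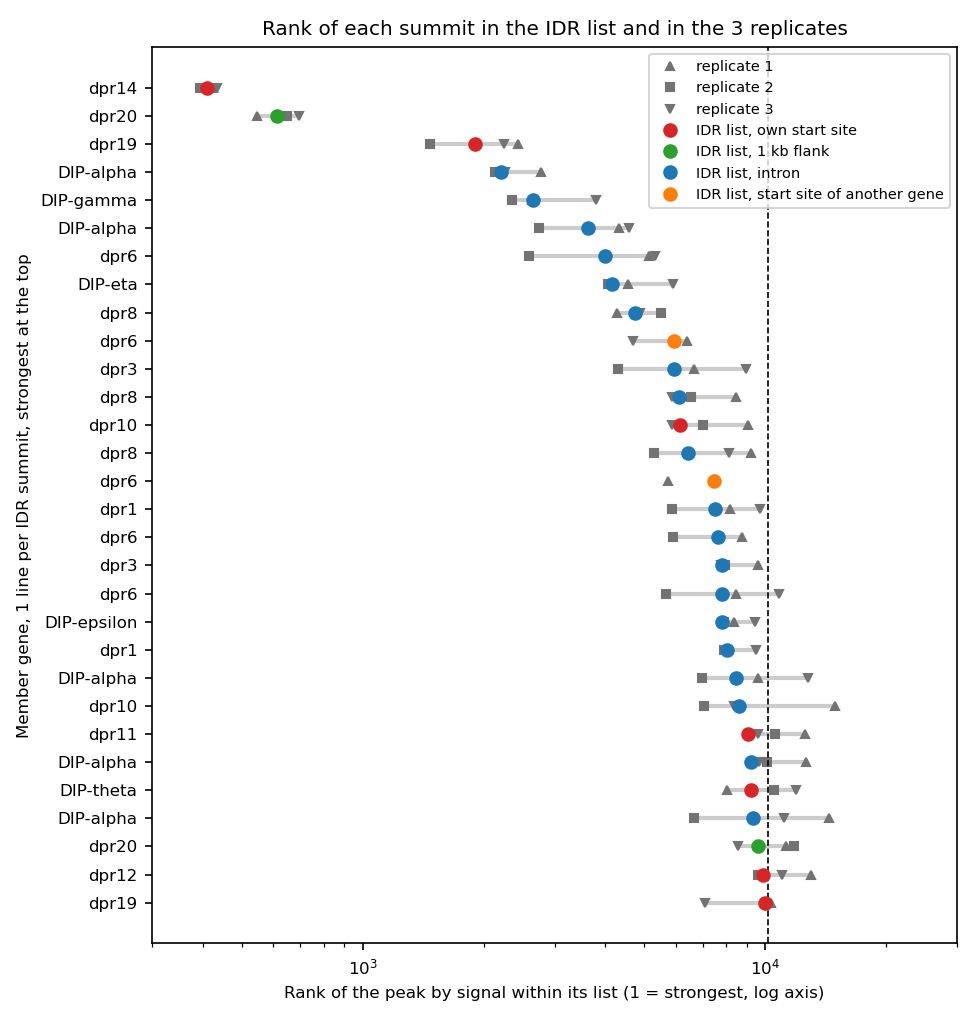
Rank by signal (log axis, 1 = strongest) of each of the 30 member summits in the IDR list (coloured by position) and of the nearest summit within 100 bp in each replicate's whole list (grey). The dashed line marks rank 10160. The peaks of dpr14 and dpr20 stand apart at ranks 410 and 613, and the weakest member peaks reach past the line in at least 1 replicate.

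A summit within 100 bp among the 10160 strongest peaks of all 3 replicates was present for 17 of the 30 member summits (56.7%), against 64.7% of all IDR summits. Among the 5080 weakest IDR peaks the shares were 38.1% (8 of 21) and 36.1%. In the replicates' whole lists 27 of the 30 were matched in all 3 (90%), against 88.8% of all IDR summits. The other 3 all lay in dpr6, and each unmatched replicate had a summit between 104 and 138 bp away.

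Motif matches at the members' summits were rare, and each exact interval covered the share in the whole list. Within 100 bp of the summit, on both strands, the Exd-Lab words TGATTGAT and TGATGGAT were present at 2 of 30 (6.67%, exact 95% binomial interval 0.818 to 22.1%), against 3.34% of all IDR summits and 4.40% of those in the introns of other genes. One was the CG32053 start inside dpr6, where TGATTGAT began 41 bp to the right of the summit and overlapped GATAAG. The other was the weakest DIP-alpha summit, where the match on the minus strand, printed as ATCAATCA, began 65 bp to the right. The homeodomain core TAATTA was present at 4 (13.3% against 14.7% of all), among them the dpr14 peak. GATAAG, a word bound by GATA factors, was present at 5 (16.7% against 15.2%), among them the dpr20 peak. GAGAGAG, bound by GAGA factor, was present at 1 (3.33% against 4.91%). TATCGATA, the DRE word, and CAGGTAG, bound by Zelda, were present at 0 of 30, which allows a share of up to 10%, against 1.98% and 0.866% of all. The strongest intronic summits, in DIP-alpha and DIP-gamma, held none of these words.

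Other families of neuronal surface proteins were counted in the same way. The 14 beat genes, which encode immunoglobulin proteins with roles in axon guidance, held 21 summits, 0.399 of the sum for genes of similar length (replicate mean 0.376 ± 0.0447 SD, n = 3). The 8 side genes, whose proteins are partners of Beat proteins, held 18, a ratio of 0.491 (0.543 ± 0.0445 SD). The dpr ratio of 0.305 (0.317 ± 0.0514 SD) came close to that of the beat genes, and their replicate ranges overlapped, while all DIP replicate values lay below those of the beat and side genes. Without DIP-lambda the DIP ratio was 0.280 (0.274 ± 0.0640 SD), and its replicate range overlapped that of the beat genes as well. A further 33 recognition and adhesion genes gave 1.05 (0.979 ± 0.0903 SD), and 0.765 (0.714 ± 0.0897 SD) without kirre. Like DIP-lambda, 2 of them had very few genes of similar length. These were kirre, with 40 summits against a mean of 0 in 2 genes, and Ten-a, with 17 against 3 in 1 gene. Ten-a raises this ratio too, and the ratio without it was not computed. The densest of the 33 with at least 3 summits were fra with 9 summits (24.2 per 100 kb), Nrt with 3 (22.4) and caps with 9 (17.0). In the side list they were side-IV with 4 (25.6 per 100 kb), side with 5 (7.76) and side-V with 3 (6.98), and in the beat list beat-Ib with 6 (10.1) and beat-IIIc with 6 (7.99). Among dpr and DIP genes over 10 kb, the densest with at least 3 summits was DIP-alpha, with 7.53 per 100 kb.

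**Figure D5:**
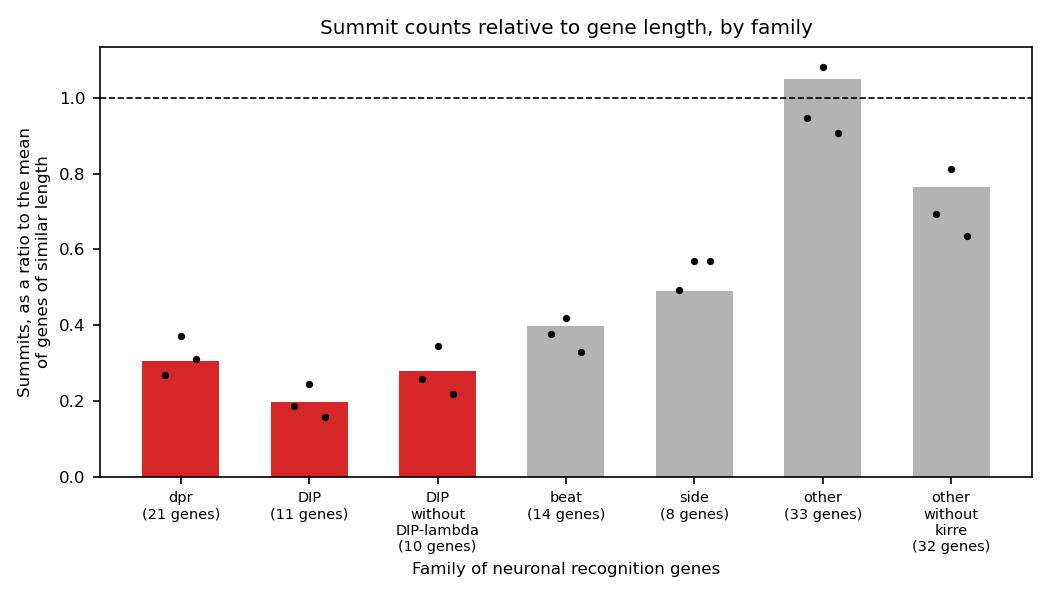
Summits of each family as a ratio to the sum of means over genes of similar length, in the IDR list (bars; red for dpr and DIP) and in each replicate's 10160 strongest peaks (points). The dashed line marks 1. The dpr and DIP bars stand at 0.305 and 0.198, or 0.280 for DIP without DIP-lambda, the beat and side bars at 0.399 and 0.491, and the 33 other genes at 1.05, or 0.765 without kirre.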

How the data were processed

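Peak lists of 1 group with 3 biological replicates were used, and all comparisons are descriptions without a test. Per the file headers and labels, each list was called by the authors on 1 replicate or on the pooled replicates, against a control that the replicates share. The replicate and pooled lists hold peaks with background as input for IDR, and the IDR list holds the peaks that passed the threshold. The deposited signal of each peak is the authors' value and was used here only to rank peaks within a list. The deposited −log10 q-value was read and not used. No source used here names an aligner, a peak caller or the value of the IDR threshold, and read depth is unknown. Intervals and the limit from a count of 0 (3 counts) cover counting error only. Those on summits take summits of the same gene as independent and may be too narrow.

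Summits were counted in genes of Ensembl release 115, on dm6 coordinates, with 1 kb on each side, and classed in order as own start site (500 bp), start of another gene, exon, intron or flank. The IDR list was exactly the 10160 strongest peaks of the pooled list, and 0 rows were shared between replicates. Sequences came from the RefSeq genome of the same build. Counts were checked against bedtools 2.31.1, with 0 differences over 13945 genes, and tested on simulated data. Python 3.11.15, numpy 2.4.6, scipy 1.17.1 and matplotlib 3.10.9 were used.

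The members, lists, motifs and the rule for named genes were chosen with earlier results of these data known. The rule gave full values for the 8 members with most summits, those with a start-site peak, those in a partner group and those with the 5 strongest peaks, and in other families the 3 densest genes with at least 3 summits. Alternatives changed the flanks, the limits on similar length, the start-site window, the number of peaks, the use of interval centres, the matching rule, the motif window and each replicate in turn. The labels do not say whether the replicates were separate embryo collections, so SDs measure the spread between these samples, which may be partly technical. The lists on the dm3 build were not used.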

Additional observations from a re-analysis of the deposited data

How the results depend on the processing

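No paired analysis was possible because only 1 group was measured. For all members, the ratio of summits to genes of similar length stayed below 1 under every alternative run. It was 0.170 in the 5080 strongest IDR peaks and 0.559 in the whole pooled list. Leaving out members, chosen after seeing the data, gave 0.297 without DIP-lambda, 0.322 without dpr7, dpr21 and DIP-lambda, and 0.195 without dpr6 and DIP-alpha. For the DIP genes alone the ratio was 0.280 without DIP-lambda, and for the 33 other recognition genes it fell from 1.05 to 0.765, on the other side of 1, without kirre. Keeping only peaks found in both remaining replicates gave 0.217 to 0.245. Members with a summit numbered 8 in those 5080 peaks and 25 in the whole pooled list, and 12 whichever replicate was left out. Members with a start-site peak numbered 2 and 17 in those lists and 3 whichever replicate was left out, against 9.44, 22.0 and 12.3 from genes of similar length. The intronic share was 81.2% in the whole pooled list and 72.2 to 80% with a replicate left out. In the 5080 strongest peaks, the median rank percentile of member summits was 52.2, against 73.6 in the main list, and 68.6 to 77.4 with a replicate left out. All 9 member summits among those 5080 peaks were found in all 3 replicates (100%). The same share for all of the 5080 was not computed, so it is not known to be particular to members. The Exd-Lab share was 3.33% with a window of 50 bp. By construction the 5080 strongest peaks and the lists with a replicate left out hold fewer peaks, and the pooled list more; the cause of the other shifts was not tested. Of 44 values under alternatives, 24 stayed within 1 SD of the replicates or, for counts of members, within 1.5 times.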

Other observations

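Members next to each other on an arm, with less than 100 kb between them, formed 4 pairs. DIP-eta and DIP-theta lay 8.34 kb apart and dpr6 and dpr10 8.09 kb apart, with 0 IDR summits in either gap. The gap of 27.5 kb between dpr5 and dpr4 held 0 IDR summits and 7 of the whole pooled list. The gap of 27.4 kb between dpr17 and dpr15 held 2 IDR summits, although neither gene held any.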
